A study of Mus musculus with 2 samples.

Results

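The genes described here encode EphA receptors and ephrin-A ligands, cell surface proteins through which neighbouring cells signal on contact. Members were taken by symbol after the Ensembl identifiers were matched to gene names, and all 10 were found among 43346 genes, as 5 receptors (Epha3, Epha4, Epha5, Epha7 and Epha8) and 5 ligands (Efna1, Efna2, Efna3, Efna4 and Efna5). Total RNA came from hindbrain of B6NCrl mouse embryos at 15.5 days, and the series held 1 untreated group of healthy embryos with 2 biological replicates. Replicate 1 pooled tissue of 78 embryos and replicate 2 of 62, males and females together, so variation between embryos was not measured. The 2 libraries were built from 10 ng of RNA longer than 200 nt and held 40020322 and 43263959 estimated counts in genes.

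An ephrin-A is tethered to the outer membrane by a glycosylphosphatidylinositol (GPI) anchor, and an EphA receptor crosses the membrane and carries a tyrosine kinase inside the cell. Binding between cells starts forward signalling in the cell with the receptor and reverse signalling in the cell with the ligand, and the common outcome in growing axons is retraction or repulsion. In the developing brain the family is known for setting boundaries between hindbrain segments, for mapping axons onto their targets in order, and for keeping axon tracts on their side of the midline.

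The labelled tissue was set against markers of brain regions. Of 10 hindbrain markers 9 reached 1 TPM (a level scaled by transcript length and library total) in both libraries, and their summed level was 279.98 and 319.85 TPM in replicates 1 and 2. Of 10 forebrain markers 2 did so, with Nkx2-1 at 0 in replicate 1. The pools differed in several regional markers, which are given beside the results they touch. Neuronal, radial glial and endothelial markers were all detected, so the levels below are those of mixed tissue.

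All 10 members were detected at 1 TPM or more in both libraries, where 63.1% of nuclear protein-coding genes were. The median of the members' mean levels was 30.05 TPM against 5.72 TPM for the median coding gene. The members were chosen with earlier results of these data known, so neither comparison is a test. Epha5, Efna3, Epha7, Efna5 and Epha4 formed the upper group by mean level, followed by Efna2, then Epha3 and Epha8, then Efna1 and Efna4. The lowest member, Efna4, lay above 49.3% of coding genes and the highest, Epha5, above 85.6%. Within the upper group no neighbours in the order were separated by more than the range of their library values, and neither were Epha3 and Epha8. Epha4 and Efna2, Efna2 and Epha3, Epha8 and Efna1, and Efna1 and Efna4 were separate in both libraries.

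**Figure D1:**
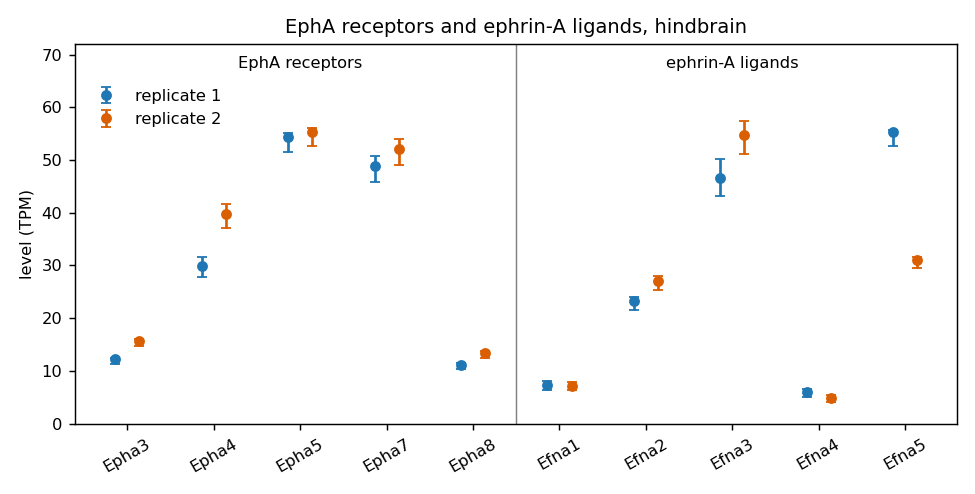
Level in TPM of each receptor (left) and ligand (right) in both libraries; points are deposited TPM values and bars the deposited interval of each value, whose level is not given in the sources used here. Efna5 stood at 55.27 TPM in replicate 1 and 31.11 TPM in replicate 2, the widest gap of the 10.

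The receptors were led by Epha5 and Epha7. Epha5, an axon guidance receptor that is also active at synapses, lies on chr5:84054761-84417382, minus strand. It measured 54.29 TPM in replicate 1 and 55.34 TPM in replicate 2, a mean of 54.8 ± 0.742 (SD, n = 2), on 5067 and 5576 estimated counts. Its pools lay within counting error, with a log2 ratio of replicate 2 over replicate 1 of 0.03 and a counting interval of -0.03 to 0.08. Here and below the ratio is of counts after TMM scaling, and the interval is a 95% exact (Clopper-Pearson) interval that covers counting error only.

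Epha7, a receptor known in cortex and neural tube for both repulsive and adhesive roles, lies on chr4:28813131-28967499, plus strand. Its level was 48.88 TPM in replicate 1 and 52.06 TPM in replicate 2, a mean of 50.5 ± 2.25 (SD, n = 2). The deposited intervals of the 2 values overlapped, and the log2 count ratio was 0.13 with an interval of 0.08 to 0.19.

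Epha4 is the receptor that binds ligands of both ephrin classes and is known for its part in hindbrain segmentation and in the guidance of corticospinal and spinal axons. It lies on chr1:77367185-77515088, minus strand, and measured 29.95 TPM in replicate 1 and 39.82 TPM in replicate 2, a mean of 34.9 ± 6.98 (SD, n = 2). Replicate 2 was the higher, with a log2 ratio of 0.36 (interval 0.30 to 0.43), the highest ratio of the 10 members.

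Epha3, a receptor of motor and visual axons, lies on chr16:63543534-63864175, minus strand. Its level was 12.18 TPM in replicate 1 and 15.69 TPM in replicate 2, a mean of 13.9 ± 2.48 (SD, n = 2), and its log2 ratio was 0.33 (interval 0.25 to 0.42). Epha8, known from the dorsal midbrain, lies on chr4:136929419-136956816, minus strand. It measured 11.09 TPM in replicate 1 and 13.33 TPM in replicate 2, a mean of 12.2 ± 1.58 (SD, n = 2), with a log2 ratio of 0.23 (interval 0.13 to 0.34). Both stood below Epha4 in each library, and both were the higher in replicate 2.

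All 5 receptors carry the DFG motif, the conserved run in the kinase domain that holds the metal ion bound to ATP. The bases that encode it are shown because they were used below to decide whether a transcript encodes the kinase domain. They were found by translating the longest annotated coding sequence of each gene in GENCODE M21 on GRCm38. Capitals mark the DFG codons within 45 nt of coding sequence, each lying in a single exon.
Epha3: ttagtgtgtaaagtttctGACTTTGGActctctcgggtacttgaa
Epha4: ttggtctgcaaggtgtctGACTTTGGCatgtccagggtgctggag
Epha5: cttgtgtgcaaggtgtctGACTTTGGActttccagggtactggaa
Epha7: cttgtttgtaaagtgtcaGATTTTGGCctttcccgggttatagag
Epha8: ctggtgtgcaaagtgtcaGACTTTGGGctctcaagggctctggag
The windows lie at chr16:63583418-63583462, chr1:77382899-77382943, chr5:84084736-84084780, chr4:28950494-28950538 and chr4:136932309-136932353, in the order shown. The motif starts at codon 765 of 984 in Epha3, 764 of 986 in Epha4, 821 of 1040 in Epha5, 776 of 998 in Epha7 and 777 of 1004 in Epha8.

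Much of the receptor TPM was assigned to transcripts whose annotated coding sequence lacks these codons. Summed over the 5 receptors, such transcripts held 46.3% of TPM in replicate 1 and 42.6% in replicate 2, a mean of 44.5% ± 2.62 (SD, n = 2). Epha7 had the greatest share, at 71.1% in replicate 1 and 66.9% in replicate 2. Epha5 followed at 48.1% and 44.5%, and Epha4 at 38.7% and 39.5%. Epha3 and Epha8 have 1 quantified transcript each, with the kinase codons, so their share is 0 by annotation.

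The size of this share depended on which transcripts entered and on the scale. Among transcripts annotated as protein-coding alone it was 17.2% ± 0.274 (SD, n = 2) over the 5 receptors, 47.7% ± 3.26 (SD, n = 2) for Epha7, 19.0% ± 4.35 (SD, n = 2) for Epha4 and 0 for Epha5. By estimated counts in place of TPM, over all transcripts, it was 24.9% ± 2.05 (SD, n = 2) for the 5 receptors, 44.6% ± 3.40 (SD, n = 2) for Epha7, 28.0% ± 1.87 (SD, n = 2) for Epha5 and 18.9% ± 0.0812 (SD, n = 2) for Epha4. TPM divides by length and many transcripts without the codons are short, so they weigh more in TPM than in counts. Among protein-coding transcripts the Epha4 share was all Epha4-203, a fragment of 614 nt with 351 coding nt. That Epha4 total left out Epha4-205, annotated as subject to nonsense-mediated decay, at 0.18 TPM in replicate 1 and 6.62 TPM in replicate 2. In transcripts that hold the codons, mean levels were 29.5 ± 1.80 TPM (SD, n = 2) for Epha5, 21.2 ± 4.07 for Epha4, 15.7 ± 2.21 for Epha7, 13.9 ± 2.48 for Epha3 and 12.2 ± 1.58 for Epha8. On that measure Epha7 was below Epha4 in both libraries, where the summed gene level had it ahead in both. The Epha4 level here includes Epha4-205. Without it, Epha4-201 stood at 18.17 and 17.48 TPM, against 14.12 and 17.24 TPM for Epha7. By posterior means Epha4-201 was at 12.48 and 13.90 TPM, Epha7-201 at 10.75 and 12.65 TPM and Epha7-203 at 3.02 and 4.20 TPM. The order thus depends on Epha4-205.

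**Figure D2:**
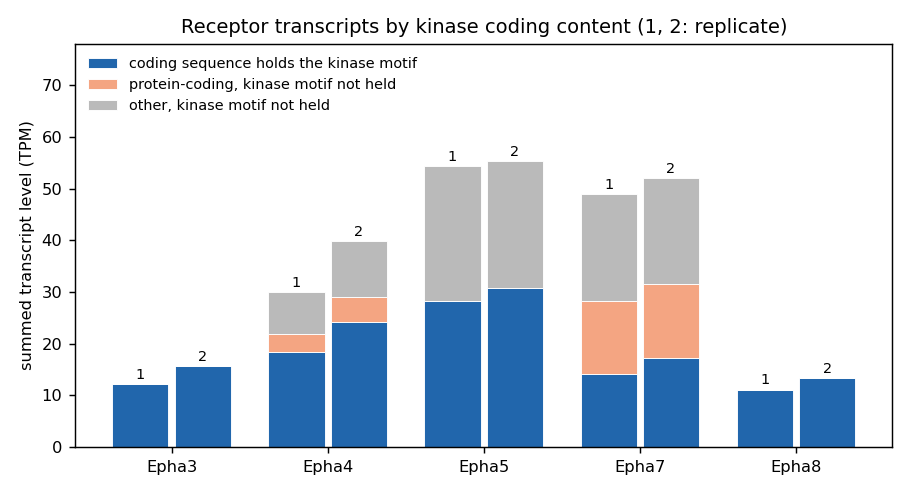
Summed transcript level in TPM of each receptor, with a bar per library (1 and 2), divided by whether the annotated coding sequence holds the DFG codons. For Epha7 the transcripts with the codons make up 28.9% of the bar in replicate 1 and 33.1% in replicate 2, and for Epha3 and Epha8 the whole bar.

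Epha7 had the most even use of transcripts. Its leading transcript in both libraries was Epha7-202, at 14.14 TPM in replicate 1 and 14.35 TPM in replicate 2, and it held 28.9% and 27.6% of the gene. Epha7-208, which has no annotated coding sequence, measured 12.58 TPM and 12.47 TPM. Epha7-201, the transcript with the longest coding sequence, measured 11.11 TPM and 13.28 TPM. The order of Epha7-208 and Epha7-201 differed between the libraries, so only the lead of Epha7-202 was shared. In replicate 1 the deposited interval of Epha7-202, 12.1 to 15.0 TPM, overlapped that of Epha7-208, 11.3 to 13.3 TPM. In replicate 2 its interval was 12.5 to 15.3 TPM. It overlapped those of Epha7-208, 11.3 to 13.1 TPM, and Epha7-201, 10.9 to 14.2 TPM.

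Epha7-202 has a coding sequence of 1830 nt against 2994 nt in Epha7-201. The sequences are shown because the change of exon after a shared junction is what removes the kinase: lower case marks the last 24 coding bases in common, and capitals the coding bases that follow, to the stop codon in Epha7-202 and for 60 nt in the others.
Epha7-201: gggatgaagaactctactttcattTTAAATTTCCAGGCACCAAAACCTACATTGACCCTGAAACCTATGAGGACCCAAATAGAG
Epha7-202: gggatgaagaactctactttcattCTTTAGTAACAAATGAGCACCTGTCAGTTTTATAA
Epha7-203: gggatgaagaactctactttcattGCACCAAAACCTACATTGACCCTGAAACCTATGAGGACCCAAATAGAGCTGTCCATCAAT
The capitals lie at chr4:28947528-28947587, chr4:28946219-28946253 and chr4:28947540-28947599, plus strand. Epha7-202 reads 35 coding nt beyond the junction, stop codon included, and Epha7-201 reads 1199. Epha7-203 enters the exon of Epha7-201 at a later acceptor, codes for 2982 nt in all and keeps the kinase, and it measured 3.01 TPM in replicate 1 and 3.96 TPM in replicate 2. A further annotated transcript without the kinase codons, Epha7-204, was listed at 0 in both libraries. The short noncoding transcripts, Epha7-206 at 5.85 and 3.23 TPM and Epha7-205 at 1.44 and 4.00 TPM, differed in opposite directions between the libraries, and their deposited intervals overlapped.

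Epha5 was led by a transcript of its 5′ part. Epha5-207, annotated as a retained intron with 3 exons and no coding sequence, measured 24.40 TPM in replicate 1 and 22.70 TPM in replicate 2, which was 44.9% and 41.0% of the gene. By estimated counts it held fewer reads than the coding Epha5-204, with 1355.66 against 1911.66 in replicate 1 and 1331.84 against 2160.65 in replicate 2. The RNA was total RNA, and the share of unspliced precursor in the reads assigned to Epha5-207 was not tested.

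Among coding transcripts of Epha5 the shorter form Epha5-204 was ahead, at 14.60 TPM in replicate 1 and 15.63 TPM in replicate 2. Epha5-205, with 18 exons and the longest coding sequence (3120 nt against 2457 nt), measured 6.30 TPM and 9.07 TPM. Epha5-202 measured 3.52 and 4.49 TPM, and Epha5-203 measured 3.76 and 1.54 TPM. Epha5-204 leaves out 3 internal exons that Epha5-205 includes, of 156, 336 and 66 nt. Each length is a multiple of 3, so the reading frame goes on across each omission, and all of these transcripts hold the kinase codons.

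The 156-nt and 66-nt exons were included in nearly as much TPM as they were left out of, and the 336-nt exon in less. The 156-nt exon (exon 4 of Epha5-205, chr5:84237399-84237554) was absent from 51.8% of the TPM of transcripts that span it in replicate 1 and 50.9% in replicate 2. The 336-nt exon (exon 5, chr5:84233583-84233918) was absent from 62.1% and 63.0%, and the 66-nt exon (exon 9, chr5:84117561-84117626) from 53.2% and 52.5%. For each exon the libraries differed by under 1 percentage point. These shares are not independent, since Epha5-204 held all or most of the TPM without each exon. The TPM with the 156-nt exon and with the 66-nt exon was the same, 13.58 in replicate 1 and 15.10 in replicate 2. The joins are shown because they separate the forms: lower case marks the last 24 bases before the skipped pair of exons, capitals the next 30.
Epha5-205: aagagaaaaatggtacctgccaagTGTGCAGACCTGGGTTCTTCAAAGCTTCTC
Epha5-204: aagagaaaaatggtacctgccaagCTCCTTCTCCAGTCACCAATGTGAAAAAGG
The capitals are chr5:84237525-84237554 in Epha5-205 and chr5:84156507-84156536 in Epha5-204, minus strand, and Epha5-202 and Epha5-203 make the same join as Epha5-205. The 66-nt exon stands in capitals below between 18 bases of its neighbours on each side.
Epha5 exon of 66 nt: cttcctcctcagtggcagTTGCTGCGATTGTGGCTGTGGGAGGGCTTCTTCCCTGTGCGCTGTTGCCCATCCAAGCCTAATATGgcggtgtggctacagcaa
A different last coding stretch of 103 nt, as in Epha5-205, was present in 22.4% of coding Epha5 TPM in replicate 1 and 29.5% in replicate 2.

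**Figure D3:**
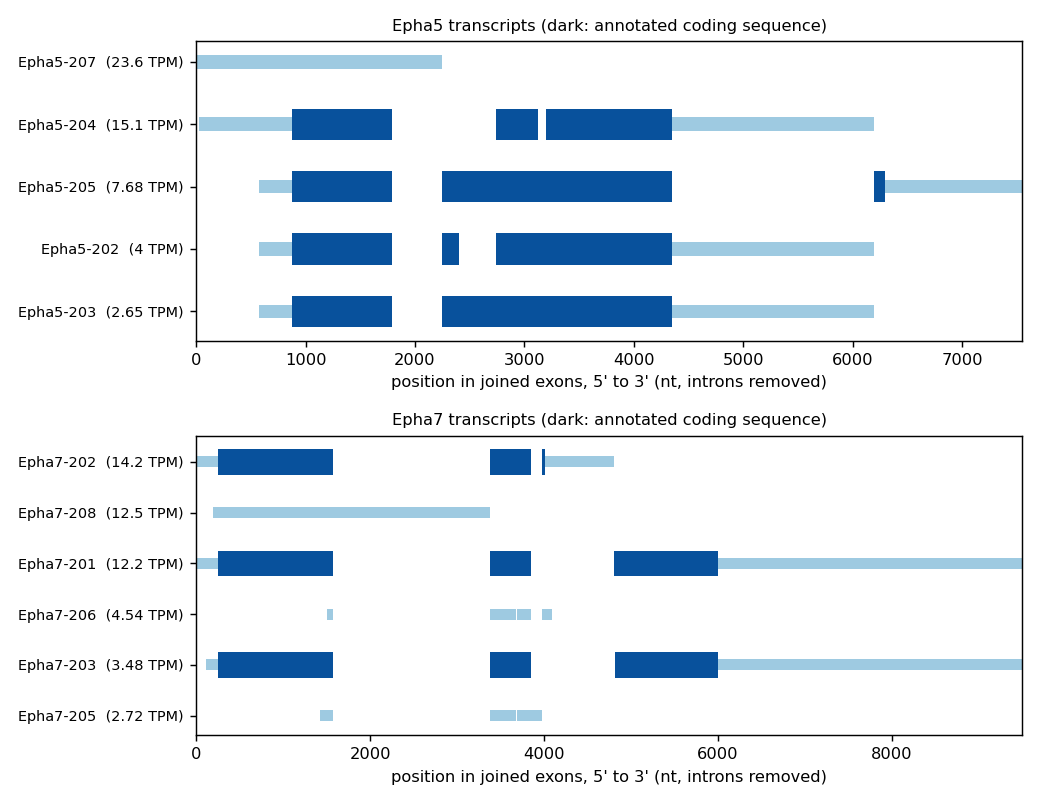
Epha5 and Epha7 transcripts at a mean of 1 TPM or more, with exons joined to scale from 5′ to 3′ in nt and introns removed; light bars are exons, dark bars annotated coding sequence, and each label gives the mean TPM of both libraries. Epha5-207 and Epha7-208 have no dark bar, and the coding sequence of Epha7-202 ends before the 3′ block that Epha7-201 and Epha7-203 share.

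In Epha4 the leading transcript held a different share in each pool. Epha4-201 measured 18.17 TPM in replicate 1 and 17.48 TPM in replicate 2, or 60.7% and 43.9% of the gene. Epha4-205, annotated as subject to nonsense-mediated decay, which encodes the same 2958 nt and differs from it only at the transcript's ends, measured 0.18 TPM and 6.62 TPM. The deposited interval of Epha4-205 ran from 0.000187 to 9.38 TPM in replicate 1 and from 5.18 to 15.7 TPM in replicate 2, so the reads hardly separate this pair. By the deposited posterior means Epha4-201 stood at 12.48 and 13.90 TPM and Epha4-205 at 5.44 and 9.68 TPM in replicates 1 and 2. The sum of their TPM was 18.35 in replicate 1 and 24.10 TPM in replicate 2, and that sum is all of the kinase-coding Epha4.

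Epha4-207, of the same annotated class, measured 6.13 TPM in replicate 1 and 8.48 TPM in replicate 2. It skips exon 2 of Epha4-201, 68 nt at chr1:77511683-77511750, a length that is not a multiple of 3. The exon was absent from 23.1% of the TPM of transcripts that span it in replicate 1 and 24.3% in replicate 2. It is printed because its loss shifts the reading frame near the start of the protein, with the exon in capitals between 18 flanking bases.
Epha4 exon of 68 nt: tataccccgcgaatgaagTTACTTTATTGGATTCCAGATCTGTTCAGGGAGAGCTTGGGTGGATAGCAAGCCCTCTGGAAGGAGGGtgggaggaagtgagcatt
The coding fragment Epha4-203 measured 3.45 and 4.96 TPM, and the retained-intron transcript Epha4-206 measured 2.01 and 2.27 TPM. Of the members' 36 quantified transcripts 34 had the same length in the annotation used here, and the exceptions were Epha3-201 and Epha5-201, the latter at 0.

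Among the ligands Efna3 and Efna5 were the highest and Efna1 and Efna4 the lowest. Efna3, a ligand of neurons and astrocytes whose known partner at dendritic spines is Epha4, lies on chr3:89313899-89322965, minus strand. It measured 46.66 TPM in replicate 1 and 54.71 TPM in replicate 2, a mean of 50.7 ± 5.69 (SD, n = 2), with a log2 ratio of 0.20 (interval 0.12 to 0.27). Efna2, known with Efna5 for its graded pattern in the visual midbrain, lies on chr10:80179482-80190010, plus strand. Its level was 23.31 TPM in replicate 1 and 27.12 TPM in replicate 2, a mean of 25.2 ± 2.69 (SD, n = 2), and its log2 ratio was 0.19 (interval 0.08 to 0.30). Both ligands were the higher in replicate 2 and below 1.5-fold.

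Efna1, first known as a ligand induced in endothelium, lies on chr3:89271733-89281142, minus strand. It measured 7.29 TPM in replicate 1 and 7.17 TPM in replicate 2, a mean of 7.23 ± 0.0849 (SD, n = 2). Efna4 lies on chr3:89333390-89338028, minus strand, and measured 5.91 TPM in replicate 1 and 4.82 TPM in replicate 2, a mean of 5.37 ± 0.771 (SD, n = 2). These are the members with the fewest counts, from 197.68 to 271 per library, and the widest intervals, -0.31 to 0.20 around a log2 ratio of -0.06 for Efna1 and -0.60 to -0.04 around -0.32 for Efna4. Endothelial markers, which were summed because Efna1 is known from that tissue, stood at 208.21 TPM in replicate 1 and 207.99 TPM in replicate 2, and none of the 8 was at 0.

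Efna1, Efna3 and Efna4 lie next to each other within 66.3 kb of chromosome 3 (chr3:89271733-89338028) on the same strand, with gaps of 32.8 and 10.4 kb and no other protein-coding gene wholly inside. Position did not go with level, since Efna3 in the middle was at 50.7 TPM and its neighbours at 7.23 and 5.37 TPM. Exons of Efna3 and Efna4 each overlap an annotated antisense gene, Gm15998 over 344 nt and 4731419I09Rik over 168 nt. Whether counting used strand is not given in the sources used here, so reads in those stretches cannot be told apart. The antisense genes were assigned 22.10 and 25.17 counts in replicate 1 and 36.59 and 19.75 in replicate 2, against 2643.9 and 3267.41 for Efna3 and 229.48 and 197.68 for Efna4. The other 8 members have no exon overlap with another annotated gene.

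Efna5, the ligand known for the caudal midbrain and for mapping retinal and auditory axons, lies on chr17:62604184-62881317, minus strand. It measured 55.27 TPM in replicate 1 and 31.11 TPM in replicate 2, a mean of 43.2 ± 17.1 (SD, n = 2), on 5557 and 3310 estimated counts. Replicate 1 was thus the higher by 1.81-fold after scaling, a log2 ratio of replicate 2 over replicate 1 of -0.86 with a counting interval of -0.92 to -0.79. Efna5 was the 1 member of 10 past 1.5-fold in either direction, where 6.48% of all 17048 genes compared were (those with a mean count of 20 or more), 2.23% being the higher in replicate 2 and 4.25% the lower. A lower ratio than that of Efna5 was found for 324 genes, or 1.90%. With 1 library per pool the difference has no test, and the counting interval does not cover variation between pools.

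**Figure D4:**
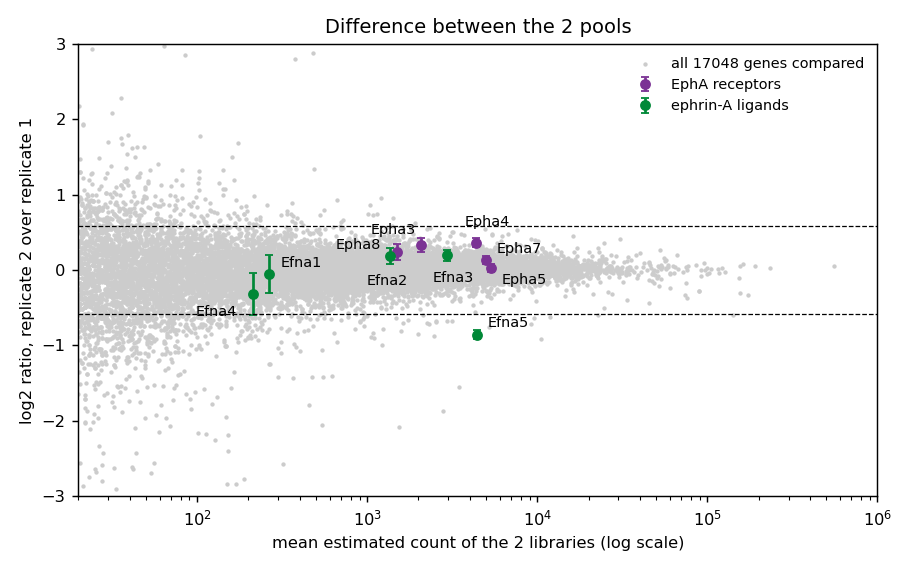
Log2 count ratio of replicate 2 over replicate 1 (y axis) against the mean estimated count (x axis, log scale); grey points are all 17048 genes compared, coloured points the members with 95% counting intervals, and dashed lines mark 1.5-fold. Efna5 lies at -0.86 and the other 9 members lie between -0.32 and 0.36; 31 grey points beyond 3 in either direction are not drawn.

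Several regional markers had ratios of the same sign as Efna5. The ones named here were chosen after their values were seen. Among 10 hindbrain markers En1, a factor of the midbrain and hindbrain border, stood at 6.37 TPM in replicate 1 and 3.03 TPM in replicate 2, and En2 at 1.07 and 0.48 TPM. The other 8, Hox genes and Gbx2, all had ratios above 0, as did 8604 of 17048 genes compared. Among 6 midbrain markers, with summed levels of 103.34 TPM in replicate 1 and 82.75 TPM in replicate 2 and none at 0, Otx2 stood at 28.14 and 17.24 TPM and Pou4f1 at 47.27 and 34.34 TPM, while 3 had ratios above 0. Among 10 forebrain markers, with summed levels of 77.46 TPM and 58.91 TPM, Lhx2 stood at 50.71 TPM in replicate 1 and 9.96 TPM in replicate 2, while Dlx1 was the higher in replicate 2 at 0.30 and 5.52 TPM. Of 9 forebrain markers compared, 5 were past 1.5-fold higher in replicate 2 and 1 lower, where 2.23% and 4.25% of all 17048 genes compared were. The part of tissue make-up in the Efna5 difference was not tested, and in pooled tissue fewer cells of a type and less RNA per cell cannot be told apart.

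Markers of other tissues moved too. All 8 meningeal and fibroblast markers had ratios below 0, with summed levels of 1478.19 TPM in replicate 1 and 1081.48 TPM in replicate 2, and 2 of them were past 1.5-fold. All 6 microglial markers had ratios below 0, with sums of 136.87 and 110.22 TPM, and so did 5 of 6 erythroid markers, with sums of 15774 and 12387 TPM. Among 6 muscle markers, with sums of 22.25 and 15.55 TPM, 3 were past 1.5-fold lower in replicate 2, where 4.25% of all genes compared were. Motor neuron markers stood at 57.61 and 51.98 TPM with 5 of 6 detected. No marker of these 5 lists was at 0 in either library, and their part in the members' ratios was not tested.

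In the neural sets the sums were closer. Postmitotic neuron markers summed to 3271 and 3398 TPM in replicates 1 and 2, radial glial markers to 2568 and 2596 TPM, and oligodendrocyte precursor markers to 140.71 and 152.53 TPM. None of these 3 lists had a member at 0 or past 1.5-fold, where 6.48% of all genes compared were past it. The sums mostly follow the most abundant genes, such as Fabp7 at 1746.03 and 1814.58 TPM and Tubb3 at 1406.49 and 1444.56 TPM. Log2 ratios of single radial glial markers ran from -0.33 to 0.35, against a median of -0.35 for the meningeal list, so the closer sums do not show that each marker was alike.

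**Figure D5:**
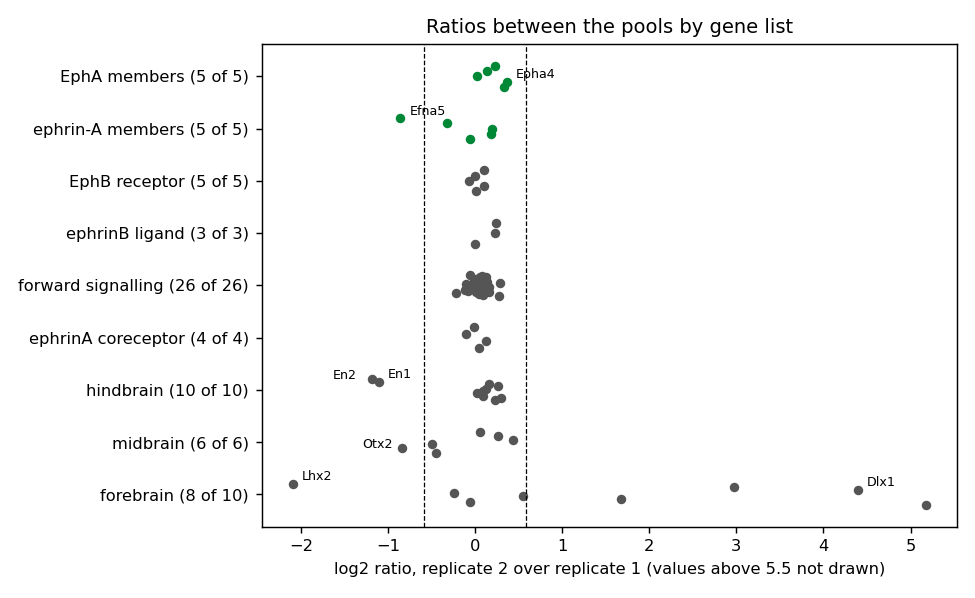
Log2 count ratio of replicate 2 over replicate 1 for each gene (points) of the receptor, ligand, pathway and regional marker lists, with the number of genes drawn beside each list and dashed lines at 1.5-fold. The points of the pathway lists lie between the lines, Efna5 lies outside them with En1, En2 and Otx2, and the forebrain markers spread from Lhx2 at -2.09 to values above 4; ratios above 5.5 are not drawn.

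Each ligand was dominated by a single transcript, unlike Epha4, Epha5 and Epha7, whose leading transcripts fell under 50% in at least 1 library. Efna1-201 held 98.4% of the gene in replicate 1 and 98.3% in replicate 2, Efna3-201 held 96.1% and 95.9%, and Efna5-201 held 98.6% and 98.8%. Efna2 and Efna4 have 1 quantified transcript each. The leading transcript was the same in both libraries for all 6 members with more than 1.

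Both forms of Efna5 had a lower TPM in replicate 2, the shorter with overlapping deposited intervals. Nearly all of the gene's TPM lay in the full-length form in both libraries. Efna5-201 measured 54.49 TPM in replicate 1 and 30.75 TPM in replicate 2, and the shorter Efna5-202 measured 0.78 and 0.37 TPM. Efna5-202 lacks exon 4 of Efna5-201, 81 nt at chr17:62613316-62613396, minus strand, and 1.41% of Efna5 TPM lacked it in replicate 1 and 1.19% in replicate 2. The exon is printed in capitals between 18 flanking bases because it is the segment by which the known long and short forms of this ligand differ.
Efna5 exon of 81 nt: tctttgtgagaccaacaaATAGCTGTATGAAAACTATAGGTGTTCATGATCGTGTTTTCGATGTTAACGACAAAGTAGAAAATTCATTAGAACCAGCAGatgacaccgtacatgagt
Its length is a multiple of 3, so both forms keep the frame.

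Summed over the members, receptors measured 156.39 TPM in replicate 1 and 176.24 TPM in replicate 2, a mean of 166 ± 14.04 (SD, n = 2). Ligands measured 138.44 TPM and 124.93 TPM, a mean of 132 ± 9.55 (SD, n = 2). The ligand sum was below the receptor sum in both libraries, with a ratio of 0.885 in replicate 1 and 0.709 in replicate 2. Within the ligands Efna5 held 39.9% in replicate 1 and 24.9% in replicate 2, and Efna3 held 33.7% and 43.8%, so their order was reversed between the pools. Among the receptors the order was the same in both libraries, with Epha5 first at 34.7% and 31.4% and Epha7 next at 31.3% and 29.5%.

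The side on which the sums fell depended on the transcripts counted. With coding ligand transcripts set over receptor transcripts that hold the kinase codons, a comparison added after the transcript values were seen, the sums were 136.62 over 83.92 TPM in replicate 1 and 122.69 over 101.09 TPM in replicate 2. The 2 sides were not restricted alike: the ligand sums hold protein-coding transcripts alone. The receptor sums include Epha4-205, annotated as subject to nonsense-mediated decay, at 0.18 and 6.62 TPM. The ratio was then 1.63 in replicate 1 and 1.21 in replicate 2. Both are ratios of RNA in whole tissue and say nothing of which cells hold ligand and receptor.

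The members' median log2 ratio was 0.16 against 0.002 over all genes compared, with a median of 0.23 for the receptors and -0.06 for the ligands. All 5 receptors (Epha5 at -0.09 with spike-in scaling, the others above 0 with both) and 2 of 5 ligands had a ratio above 0, as did 8604 of 17048 genes. The median was 0.046 when libraries were scaled by their spike-in totals, a scaling that moved the median gene by -0.11. A change of scaling moves all genes alike, so the members' position relative to the median gene was the same under both.

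The other EphA receptors were lower than those described. The members were chosen with earlier results of these data known, so this comparison cannot be set apart from that choice. Of these 4 EphA receptors 3 were detected, with a median of 4.75 ± 0.520 TPM (SD, n = 2). Epha10, a receptor whose kinase is thought to be inactive, measured 10.78 TPM in replicate 1 and 10.36 TPM in replicate 2. Epha6 measured 7.55 and 9.12 TPM, and Epha2, better known from epithelia, 1.21 and 1.11 TPM. Epha1 was below the minimum at 0.21 and 0.22 TPM. Each was thus below Epha8, the lowest of the 5 receptors described, in both libraries. In replicate 1 the 10.78 TPM of Epha10 lay inside the deposited Epha8 interval of 10.3 to 11.4 TPM, so the order of these 2 is not resolved there.

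All 5 EphB receptors were detected, with a median of 19.2 ± 0.552 TPM (SD, n = 2). Ephb1 measured 40.90 TPM in replicate 1 and 42.47 TPM in replicate 2, Ephb6 measured 32.10 and 35.80 TPM, and Ephb2 measured 18.81 and 19.59 TPM. All 3 ephrin-B ligands, which cross the membrane, were detected as well. Efnb3, known as the midline barrier ligand of the brainstem and spinal cord, was the highest of the Eph and ephrin genes listed, at 107.14 TPM in replicate 1 and 129.37 TPM in replicate 2. Efnb1 followed at 23.53 and 23.33 TPM and Efnb2 at 14.23 and 17.12 TPM. No EphB receptor or ephrin-B was past 1.5-fold between the pools, where 6.48% of all genes compared were.

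Of 26 effectors of the forward signal 26 were detected, where 63.1% of nuclear protein-coding genes were. Their median was 19.5 ± 1.44 TPM (SD, n = 2). Rhoa, the GTPase that drives growth cone collapse, had the highest level at 228.82 TPM in replicate 1 and 221.61 TPM in replicate 2. The adaptor Crk measured 86.77 and 87.61 TPM, and Cdk5, a kinase that acts on the exchange factor Ngef, 68.41 and 73.90 TPM.

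Because ephrin-A proteins have no part inside the cell, reverse signals are thought to need partners that cross the membrane. All 4 such co-receptors were detected: Ntrk2, the BDNF receptor, at 44.45 TPM in replicate 1 and 49.53 TPM in replicate 2, Ngfr at 34.28 and 36.28 TPM, Tnfrsf19 at 20.06 and 20.67 TPM, and Ret with a mean of 9.41 ± 0.255 TPM (SD, n = 2). Enzymes that end the contact or the signal were detected in 6 of 6 cases. Ptpn1, a phosphatase, measured 59.19 and 53.50 TPM, Ptprf measured 46.67 and 50.96 TPM, and Adam10, the protease that cuts ephrin-A from the cell, 44.24 and 44.34 TPM. The 5 subunits of the GPI transamidase, which attaches the anchor, had a median of 71.4 ± 5.19 TPM (SD, n = 2), led by Gpaa1 at 120.93 and 131.46 TPM, Pigt at 74.37 and 82.77 TPM and Pigs at 67.70 and 75.04 TPM. Across the lists of the pathway outside the members, 52 of 53 genes were detected, where 63.1% of nuclear protein-coding genes were. None of the 52 compared was past 1.5-fold, where 6.48% of all 17048 genes compared were. Their log2 ratios ran from -0.48 to 0.28. The lists were chosen with earlier results of these data known.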

How the data were processed

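Total RNA of 2 pools of embryonic hindbrain was analysed, 1 library each. Per the file headers and accompanying notes, the authors quantified each library on mm10 with GENCODE M4, without pooling. No aligner, quantifier or strand setting is given in the sources used here. Deposited as estimated counts, the reads of each gene and transcript carry no normalization. TPM as the authors give it is scaled over all features, with spike-ins counted. FPKM, deposited beside it and scaled by length and depth, served as an alternative. The deposited TPM interval bounds and the spread of counts, a signal per the file headers, marked uncertain splits. The percent of each gene held by a transcript is the authors' own in the files and was recomputed here from transcript TPM.

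Symbols, positions, transcript structures and sequences were taken from GENCODE M21, whose assembly GRCm38 is that of mm10, after identifier versions were removed. The 97 spike-ins (2.86% of counts in replicate 1, 3.09% in replicate 2) and 26248 features with numeric identifiers were left out of library sizes. Detection was 1 TPM in both libraries. Ratios used TMM scaling (edgeR 4.0.16, R 4.3.3), a prior count of 0.5 and a mean count of 20 or more, with calls past 1.5-fold and 95% exact intervals (scipy 1.17.1). Exon shares compared the TPM of transcripts with and without an internal exon of the longest coding transcript. The ratio step was run on simulated counts with set changes and counting error only. Those counts held no variation between pools, so the run does not bear on the calls between the real pools. With 1 group and 1 library per pool no p-value was computed, and no likeness between genes was computed over 2 libraries. DESeq2 1.42.0 size factors, library totals and spike-in totals were alternative scalings.

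All 10 members are named, with the 3 genes of highest mean TPM in each other pathway list, any past 1.5-fold, and each member's leading transcripts and those at 1 TPM in both libraries. A marker left out of the text by name is not reported here. The members, lists and alternatives were chosen with earlier results of these data known.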

Additional observations from a re-analysis of the deposited data

How the results depend on the processing

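The count of members detected (10), the count past 1.5-fold (1), the count of members with the same leading transcript in both libraries and the counts of every pathway list detected were within 1.5 times their reported values under each alternative run. With protein-coding transcripts alone the leader of Epha5 was Epha5-204 in place of Epha5-207. With either library alone the ligand over receptor ratio ran from 0.709 to 0.885, the receptor share without kinase codons from 42.6% to 46.3%, and the number of members that kept their rank from 7 to 8 of 10. A log2 ratio was said to move if it changed by more than the half-width of its counting interval. For the median member ratio the members' median half-width, 0.082, was used. The ligand over receptor ratio and the kinase shares were judged against the SD between libraries. Among the summary values, the median member log2 ratio moved to 0.046 with spike-in totals. The ligand over receptor ratio moved to 1.42 with coding ligands over kinase-coding receptors. The share without kinase codons moved to 17.2% among protein-coding transcripts and to 24.9% by estimated counts. Of values of single members 15 moved: 8 log2 ratios with spike-in totals (Epha7 at 0.02, Epha5 at -0.09) and 7 kinase shares of Epha4, Epha5 and Epha7 (3 among protein-coding transcripts, 3 by estimated counts and 1 by posterior means). The 2 comparisons by counts and by coding content were chosen after seeing the data. No direction called past 1.5-fold was reversed, and the Efna5 log2 ratio ran from -0.97 to -0.81 over 8 alternatives. No paired analysis was possible because the series holds 1 group. Depth limits Efna1 and Efna4 most, with 197.68 to 271 counts a library, and the division of reads among similar transcripts of 1 gene limits every isoform share.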
